A study of Mus musculus with 6 samples.

Results

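The genes described here are Scube1, Dcaf15, Dnm3, Pigc, Synj2 and Cyb5r3, which hold or lie nearest to regions bound by Bapx1 that the study took into gel-shift or luciferase reporter assays. They are 6 of the 22367 protein-coding genes of the mm9 annotation, and 5 of the 7 tested regions lie at them. Each gene was given a window of its body plus 100 kb on either side, and every deposited Bapx1 peak with its summit in a window was taken. The windows of Dnm3 and Pigc, which overlap on chromosome 1, share peaks, and a shared peak was counted once.

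Chromatin immunoprecipitation followed by sequencing (ChIP-seq) was done in the vertebral column of E12.5 mouse embryos (strain label CD1) and in NIH3T3 cells, a mouse fibroblast line. In the embryos, the Bapx1 locus carried an S-peptide tag, placed at the N-terminus of the protein by homologous recombination, and chromatin pooled from many embryos was precipitated with an anti S-Peptide antibody. The control was wildtype embryos without the tag, taken through the same antibody, although its title calls it input. In NIH3T3 cells V5-tagged Bapx1 was overexpressed, and the V5 control is labelled both as empty pcDNA6 vector and as wild type 3T3. There was 1 library per condition, so the values below compare libraries, have no replicate error, and carry exact binomial 95% intervals that cover counting error only. Each library held 24855032 tags (embryo, tagged Bapx1), 20704235 (embryo, wildtype), 9124697 (NIH3T3, Bapx1) and 13327426 (NIH3T3, V5 control). No expression was measured in these libraries, so the tissue and cell labels could not be checked against marker genes.

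Bapx1 (Nkx3-2) is a homeodomain transcription factor of the NK family, needed for the axial skeleton and the spleen. The motif T(G/A)AGTG is the known binding motif of Bapx1. ChIP-seq tags gather on either side of a contacted site, so that the summit of a peak estimates where the protein lay. The 6 genes have unlike roles. Scube1 encodes a secreted and membrane-attached protein with EGF-like repeats and a CUB domain, Dcaf15 a substrate receptor of the CUL4-DDB1 ubiquitin ligase, Dnm3 a dynamin GTPase of membrane fission, Pigc a subunit of the enzyme that starts the synthesis of GPI anchors, Synj2 a phosphoinositide phosphatase, and Cyb5r3 the NADH-cytochrome b5 reductase. Dnm3 also hosts, on its opposite strand, the noncoding RNA Dnm3os, a precursor of microRNAs with a role in skeletal growth.

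The oligonucleotides tested at the 5 regions are shown because they fix the base pairs that were assayed. Those of R1, R2, R3 and R4 were used in the gel shift and the luciferase assay, and that of R7 in the luciferase assay alone. Each is 36 bases long and matched mm9 with 0 mismatches. Capitals mark the 6-base motif T(G/A)AGTG on either strand. The Cyb5r3 oligonucleotide lies in an annotated UTR, and only its middle 30 bases are given.
Scube1 (R1), chr15:83509195-83509230, minus strand: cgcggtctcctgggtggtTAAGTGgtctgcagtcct
Dcaf15 (R2), chr8:86628855-86628890, minus strand: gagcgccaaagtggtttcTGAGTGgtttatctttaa
Dnm3 and Pigc (R3), chr1:163947302-163947337, plus strand: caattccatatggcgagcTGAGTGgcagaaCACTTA
Synj2 (R4), chr17:5960272-5960307, plus strand: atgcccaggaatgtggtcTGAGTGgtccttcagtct
Cyb5r3 (R7), chr15:83002753-83002782, plus strand: gacgggagtgcgcgcTGAGTGgctgacggc
In all 5 the motif was followed by a further G, which makes a 7-base form. The R3 oligonucleotide held a second 6-base motif on the other strand, with starts 12 bp apart. The mutated oligonucleotides follow, with the stretch that spans the changed bases in capitals.
mutant of R1: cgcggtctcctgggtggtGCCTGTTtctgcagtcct
mutant of R3: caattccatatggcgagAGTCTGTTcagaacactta
mutant of R7: gacgggagtgcgcgcGTCTGTTctgacggc
Counted from 1 at the 5′ end of the whole oligonucleotide, 7 bases were changed at positions 19 to 25 in the mutants of R1 and R7, and 8 bases at positions 18 to 25 in that of R3. The mutants of R1 and R7 held no 6-base motif, whereas that of R3 kept the second motif of the wildtype, on the other strand. The mutant of R1 was used in the gel shift, where the study reports that binding was lost. Those of R3 and R7 were used in the luciferase assay, where it reports no activity above the basal level. Of the wildtype oligonucleotides, the study reports that R1, R2, R3 and R4 all bound Bapx1 in the gel shift. In the luciferase assay it reports activity above the basal level for 5 of 7 regions, and its main text does not say which. Both assays used V5-tagged Bapx1 overexpressed in NIH3T3 cells.

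Both Scube1 and Dcaf15 had further motifs in the same peak that the oligonucleotides did not cover, shown here because they bear on which bases the tags lay over. In the Dcaf15 peak the tested motif and a second 7-base motif, on the other strand, had starts 88 bp apart, and the summit lay between them. In the Scube1 peak a pair of motifs lay at the end away from the tested one. The second, untested embryo peak of Scube1 held 1 motif near its summit. Capitals mark the 6-base motif, and all 3 stretches are given on the minus strand of mm9, which is the strand of both genes.
Dcaf15 upstream, chr8:86628822-86628981: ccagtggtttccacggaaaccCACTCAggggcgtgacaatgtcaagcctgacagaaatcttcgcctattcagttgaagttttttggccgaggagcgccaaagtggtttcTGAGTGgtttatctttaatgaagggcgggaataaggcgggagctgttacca
Scube1 R1 peak, far end, chr15:83508680-83508749: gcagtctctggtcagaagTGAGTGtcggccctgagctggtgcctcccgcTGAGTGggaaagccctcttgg
Scube1 second peak, chr15:83527551-83527651: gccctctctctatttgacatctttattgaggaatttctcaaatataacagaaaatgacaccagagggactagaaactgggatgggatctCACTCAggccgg

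At the 5 tested regions together, 155 tags of the tagged embryos and 28 of the wildtype control lay within 200 bp of the regions' centres, a ratio of 4.61 (95% interval 3.07 to 7.17) after scaling to the tags of each library. These regions were chosen by the study from its bound regions, so this ratio describes the choice and was given no test. By the study's account the regions were picked at random among those with the motif, and it names no NIH3T3 values in that choice. Their embryo peaks ranked 47 (Scube1), 327 (Dcaf15), 516 (Dnm3 and Pigc), 743 (Synj2) and 674 (Cyb5r3) of 2815 by p. They thus lay towards the strong end of the list. In NIH3T3 cells, 33 tags of V5-Bapx1 and 15 of the V5 control gave a ratio of 3.08 (1.63 to 6.10). On the 100 bp of the regions it was 2.52 (0.758 to 9.57), an interval that includes 1, and within 500 bp 1.57 (1.05 to 2.36). By region the NIH3T3 ratio within 200 bp ranged from 0.350 to 6.996. It was above 1 at the Dcaf15, Cyb5r3 and Dnm3 and Pigc regions and below 1 at Scube1 and Synj2, and the difference between these regions was not tested.

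**Figure D1:**
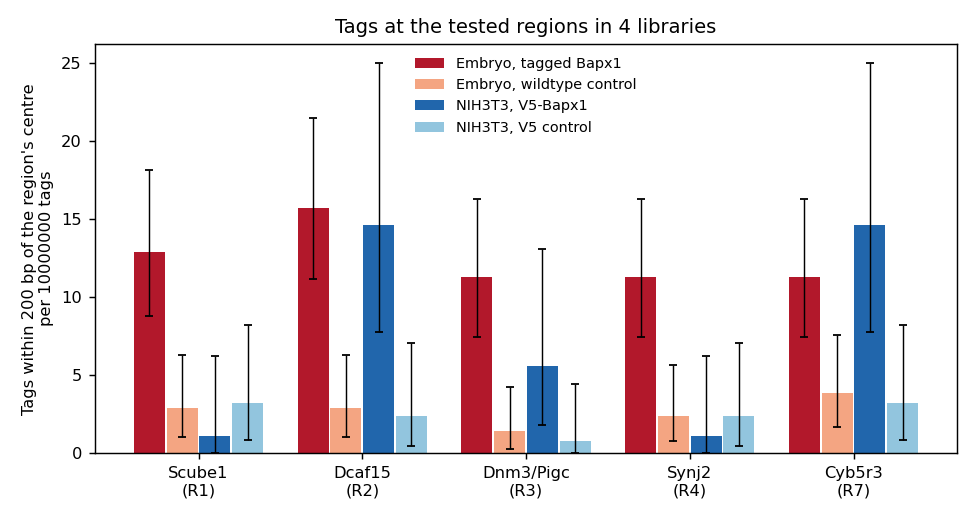
Bars give the tags within 200 bp of the centre of each tested region per 10000000 tags of the library (y axis) in the 4 libraries, with exact Poisson 95% intervals for counting error. In the tagged embryos the 5 regions sit between 11.3 and 15.7 and in the wildtype control between 1.45 and 3.86, whereas in V5-Bapx1 NIH3T3 cells they range from 1.12 to 14.6.

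The Dcaf15 region (chr8:86628822-86628921) lies upstream of the gene, with its motif 208 bp before the transcription start site (TSS). It had 39 tags in tagged embryos, 6 in wildtype embryos, 13 in V5-Bapx1 cells and 3 in the V5 control. It was therefore high in both Bapx1 libraries, with ratios of 5.41 (2.28 to 15.6) in the embryo and 6.06 (1.67 to 33.2) in NIH3T3 cells. Within 500 bp the ratios were 2.41 (1.39 to 4.37) and 2.33 (1.09 to 5.23), and on the 100 bp of the region the embryo ratio was 12.5 (1.92 to 526). The deposited NIH3T3 list nevertheless holds no peak there, and its nearest summit was 39229 bp from the motif.

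The Cyb5r3 region (chr15:83002712-83002811) lies in the UTR of the longer annotated transcript, and its motif is 139 bp upstream of the start of a shorter one. It had 28 tags in tagged embryos, 8 in wildtype, 13 in V5-Bapx1 cells and 4 in the V5 control. The embryo ratio was 2.92 (1.30 to 7.40) and the NIH3T3 ratio 4.55 (1.41 to 19.1). With 5′ ends moved 100 bp they were 4.498 and 3.15 (0.879 to 14.0). On the 100 bp of the region they were 2.78 (0.715 to 15.7) and 2.798 (0.146 to 165), so that the interval in NIH3T3 cells included 1 under both settings and that in the embryo under the latter. Within 500 bp they were 2.261 (1.20 to 4.52) and 2.26 (1.08 to 4.91). A peak of the NIH3T3 list lay close by, with its summit 514 bp from the tested motif, but did not overlap the region.

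The region shared by Dnm3 and Pigc (chr1:163947278-163947377) lies in an intron of the long noncoding transcript of Pigc and in an exon of a noncoding transcript of Dnm3, with the nearest TSS 12020 bp away, that of 2810442N19Rik. It had 28 tags in tagged embryos, 3 in wildtype, 5 in V5-Bapx1 cells and 1 in the V5 control. The embryo ratio was 7.77 (2.40 to 40.0). With 5′ ends moved 100 bp towards the fragment's centre it was 4.03, and within 500 bp 3.41. In NIH3T3 cells the ratio was 6.996, with an interval from 0.783 to 331 that includes 1, since it rests on 6 tags in both libraries. Within 500 bp it was 1.399 (0.458 to 4.28).

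The Scube1 region (chr15:83509181-83509280) lies in an intron, 46242 bp downstream of the nearest TSS of the gene. It had 32 tags in tagged embryos, 6 in wildtype, 1 in V5-Bapx1 cells and 4 in the V5 control. The Synj2 region (chr17:5960252-5960351), also intronic, had 28, 5, 1 and 3 tags, and its motif lay 15293 bp upstream of an internal TSS. Both were thus high in 1 of the 4 libraries, that of the tagged embryos. The embryo ratios were 4.44 (1.83 to 13.0) at Scube1 and 4.67 (1.78 to 15.5) at Synj2. On the 100 bp of the Scube1 region the ratio was 9.16 (1.33 to 394), and within 500 bp of the Synj2 centre it was 1.897 (1.07 to 3.51). The NIH3T3 ratios were 0.350 (0.0071 to 3.54) and 0.466 (0.0089 to 5.81), so that with 1 Bapx1 tag each an enrichment was not detectable at this depth, and one of up to 3.54-fold or 5.81-fold would lie within the interval. Within 500 bp the NIH3T3 ratios were 0.799 (0.172 to 3.15) at Scube1 and 0.311 (0.0327 to 1.502) at Synj2.

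At 4 of the 5 regions the tags of the tagged embryos lay on either side of the tested motif. There the 5′ ends of tags on the plus strand lay mostly before the motif and those on the minus strand after it. At Dcaf15 the median distances along the chromosome were −48 bp for 13 plus tags and 94 bp for 23 minus tags. At Synj2 they were −30 bp and 59 bp, at Cyb5r3 −67 bp and 77 bp, and at the Dnm3 and Pigc region −18.5 bp and 76 bp. The peaks were called from these same embryo tags, and the 4 tested motifs lay 16 to 35 bp from their summits. The pattern therefore describes the call and was not tested.

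Scube1 differed. There the medians were −20 bp for 16 plus tags and −108 bp for 21 minus tags within 200 bp, so that the medians of both strands lay before the tested motif, with tags after it as well. Its peak, 770 bp long, was the widest of the 9 embryo peaks and ranked 47 of 2815 by p, with 83 tags by the authors' count, and its summit was 254 bp from the tested motif. No 6-base motif lay within 50 bp or 100 bp of that summit. The 3 motifs of the peak lay 257 bp and 226 bp to the one side of the summit and 255 bp to the other. Tags of the tagged embryos within about 50 bp were 9 and 15 at the former pair and 11 at the tested motif, against 1 at each in wildtype, and 17 against 1 lay within 50 bp of the summit itself. The tags were thus spread over the whole peak, with none of its motifs at the centre.

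**Figure D2:**
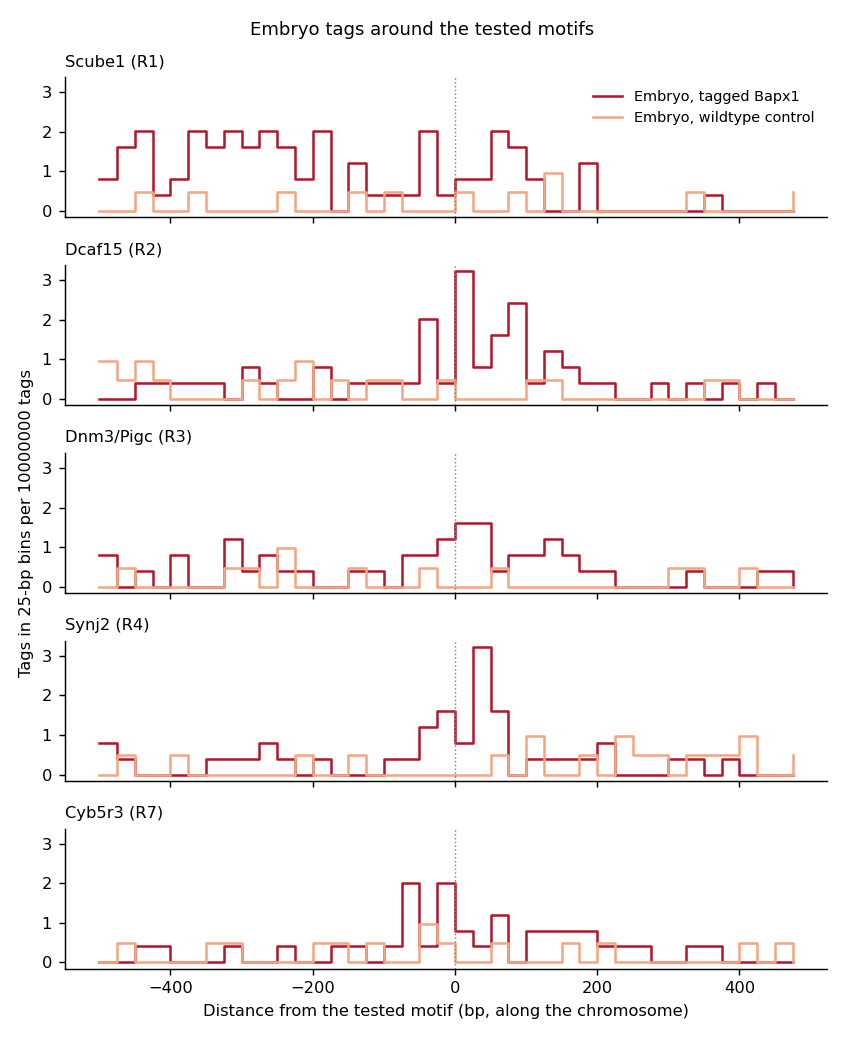
Tags per 10000000 tags of the library in bins of 25 bp (y axis) against the distance from the tested motif in bp (x axis), for tagged and wildtype embryos at the 5 regions. At Dcaf15, Dnm3/Pigc, Synj2 and Cyb5r3 the tags gather within about 200 bp of the motif. At Scube1 they extend to the left edge, past the summit, which lies 254 bp from the motif.

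The embryo list has 2815 peaks, of which 9 lay in the windows, 5 of them tested and 4 not. Each gene had at least 1 embryo peak because it was chosen for one, against 25.1% of all protein-coding genes. Scube1, Dcaf15, Dnm3 and Pigc had a second one or more, the latter pair by the same 3 peaks. Of all protein-coding genes 5.94% have at least 2 embryo peaks in such a window, and of those with at least 1, 23.6%. Over the joined windows, 1761 kb in all, the 4 untested peaks made 2.27 peaks per Mb (exact Poisson interval 0.619 to 5.82), beside 1.25 per Mb over the windows of all protein-coding genes, a value within that interval. The false discovery rate that the authors give ranged from 19.1% to 67.4% over the 9 peaks, and no peak of the whole embryo list reached 5%.

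The untested peak of Scube1 (summit chr15:83527601), in an intron 27850 bp downstream of the TSS, had 30 tags in tagged embryos, 3 in wildtype, 1 in V5-Bapx1 cells and 1 in the V5 control within 200 bp. Its ratio in the embryo was 8.33 (2.59 to 42.7), and its motif, without the further G, lay 41 bp from the summit. All untested embryo peaks were called from these same embryo libraries, so their embryo ratios describe the call and were given no test. The second peak in the Dcaf15 window (summit chr8:86590686) was at the start of another gene, 49 bp upstream of a TSS of Rfx1, which encodes a transcription factor of the RFX family. It had no 6-base motif anywhere in its limits and 28, 8, 7 and 2 tags in the same order of libraries. Its ratios were 2.92 (1.30 to 7.40) in the embryo and 4.90 (0.932 to 48.3) in NIH3T3 cells.

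At Dnm3 and Pigc, 2 untested peaks lay on either side of the tested one. The first (summit chr1:163939307), in introns of both genes, had 25 and 9 embryo tags, a ratio of 2.31 (1.05 to 5.63), the lowest of the 9. The second (summit chr1:163966684), in an intron of Dnm3 alone, had 20 and 4, a ratio of 4.17 (1.395 to 16.8). Neither held a 6-base motif within its limits. All 3 peaks of the locus lay towards the 3′ end of Dnm3, and within 100 kb of the gene's own start there were 0 embryo peaks.

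Of the 9 embryo summits, 5 had the 6-base motif within 50 bp (55.6%, exact interval 21.2 to 86.3%), beside 31.3% of the whole embryo list and 10.5% of windows 500 bp to either side. The motif stood at 4 of the 5 tested summits, whose oligonucleotides all hold it, and at 1 of the 4 untested. In the NIH3T3 pair, 5 of the 9 embryo peaks had a scaled ratio of at least 2 (55.6%), beside 37.9% of the embryo list. Those were 3 tested peaks and 2 untested, and the interval lay above 1 for 2 of the 9, those of Dcaf15 and Cyb5r3. Within 50 bp of the Cyb5r3 summit the NIH3T3 libraries had 2 tags each. None of the 9 overlapped an NIH3T3 peak, as do 6.39% of the embryo list.

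The NIH3T3 list, with 23205 peaks, held 39 in the windows. All 6 genes had at least 1, as had 81% of protein-coding genes. By window there were 15 at Dnm3, 7 each at Pigc, Synj2 and Cyb5r3, 6 at Dcaf15 and 3 at Scube1. Peaks shared by the windows of Dnm3 and Pigc are counted at both. Inside the gene bodies there were 13 at Dnm3, 5 at Synj2, 3 at Cyb5r3, 2 at Pigc and 0 at Dcaf15 and Scube1. The other peaks, 18 of the 39, lay outside all 6 genes, some of them in or at the starts of other genes. Per Mb of window, the density was lowest at Scube1 (9.30) and highest at Cyb5r3 (31.9). Over all windows it was 22.1 (exact Poisson interval 15.7 to 30.3), beside 9.89 over the windows of all protein-coding genes. That interval takes the peaks as independent, but some are close neighbours, as at summits chr15:82987470 and chr15:82987841, so it is too narrow. Dnm3, whose window of 695.6 kb is the longest of the 6, had more NIH3T3 peaks than 99.7% of protein-coding genes, whose median window was 215.4 kb, and Scube1 more than 55.6%. Within 100 kb of the gene's start alone, Dnm3 had 2 and Scube1 1. With 50 kb in place of 100 kb on either side of the gene, Dcaf15 had 1, and with 200 kb Pigc had 16.

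Synj2 held the strongest NIH3T3 peak of the set. It lay 1197 bp downstream of the gene's start (summit chr17:5942600) and ranked 769 of 23205. Within 200 bp of the summit it had 23 tags in V5-Bapx1 cells and 0 in the V5 control, and 2 motifs lay within 50 bp. A further one (summit chr17:5994625), 1391 bp upstream of an internal TSS, had 24 tags against 4 and 3 motifs. Within the deposited limits of these 2 peaks the tags were 34 against 5 and 37 against 11. In the embryo the former had 7 tags against 4 in wildtype and the latter 10 against 8, both within counting error. The tested Synj2 region had its nearest NIH3T3 summit 3129 bp away, where 11 tags stood against 4.

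At Dnm3, 13 of the 15 NIH3T3 peaks lay in the gene. The strongest (summit chr1:164108112) had 18 tags against 1 in the control, and 3 against 2 in the embryo pair. A pair lay at Dnm3os. One (summit chr1:164146015), 1739 bp upstream of a Dnm3os TSS, had 9 tags against 0, and the other (summit chr1:164149846), in a noncoding exon of Dnm3os, had 9 against 1. Each held a 6-base motif near the summit. Their embryo tags were 10 in the tagged and 7 in the wildtype library at the first, and 10 and 13 at the second, so that no embryo enrichment was detectable there. Over the 15 peaks the embryo ratios ran from 0.625 to 2.83, with a median of 1.19.

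Scube1 had an NIH3T3 peak 4026 bp upstream of its start (summit chr15:83559477), with a 7-base motif at the summit and 11 tags against 2, but 4 against 2 in the embryo. At Cyb5r3 the NIH3T3 peak nearest to the tested region (summit chr15:83002257), 375 bp downstream of a TSS, had 16 tags against 7, 2 motifs, and 12 against 9 in the embryo. In the Dcaf15 window none lay in the gene itself, and 3 lay 7772 to 13301 bp upstream of Mir181c, their nearest TSS. The peak with the highest embryo ratio of all 39 (summit chr8:86589640) was there, 1046 bp from the embryo peak at Rfx1. It had 9 tags against 1 in NIH3T3 cells and 10 against 1 in the embryo, a ratio of 8.33 (1.19 to 362). Within the deposited limits of the peak the embryo tags were 8 against 1, and the interval, 0.893 to 296, included 1.

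Over the 39 peaks, 6 had a ratio of at least 2 in the embryo pair (15.4%, exact interval 5.86 to 30.5%), beside 21.7% of the whole NIH3T3 list. The count depended on the threshold, with 11 at a fold of 1.5 and 3 at a fold of 3. The median ratio was 1.11, the same as over the whole list, and the interval lay above 1 for 2 of them and below 1 for 0. None overlapped an embryo peak, as do 0.776% of the list. The 6-base motif lay within 50 bp of 19 of the 39 summits (48.7%, 32.4 to 65.2%), beside 64.4% of the list and 10.7% of its flanks. It stood at 10 of 15 summits at Dnm3 and at 1 of 7 at Cyb5r3. The 7-base form of the tested oligonucleotides lay at 6 of the 39 summits, beside 24.6% of the list.

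**Figure D3:**
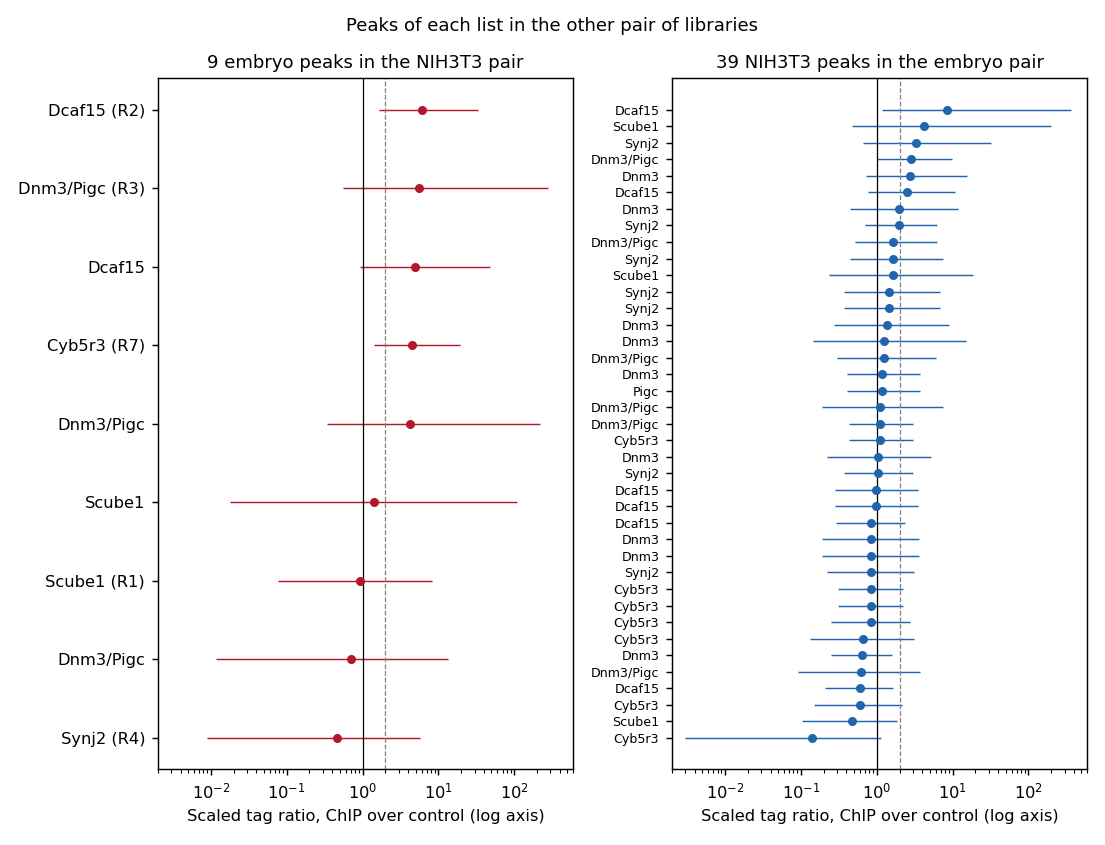
Scaled tag ratio of ChIP over control within 200 bp of the summit (x axis, log scale) with exact 95% intervals, for the 9 embryo peaks in the NIH3T3 libraries (left, tested regions named) and the 39 NIH3T3 peaks in the embryo libraries (right). Each row is a peak named by its gene, the solid line is a ratio of 1 and the dashed line 2. The embryo peaks range from 0.466 to 6.06 and the NIH3T3 peaks from 0.139 to 8.33.

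Away from the peaks, the embryo ratios over the windows lay closer to 1 than the NIH3T3 ratios at 5 of the 6 genes. With all peaks of both lists and 1 kb around them left out, the embryo ratio over each window lay between 0.963 (0.906 to 1.02) at Cyb5r3 and 1.04 (1.002 to 1.07) at Dnm3, the one gene whose interval did not include 1. The NIH3T3 ratio was 0.831 (0.775 to 0.890) at Scube1, 0.849 (0.779 to 0.925) at Dcaf15 and 0.872 (0.798 to 0.952) at Cyb5r3, but 1.08 (1.02 to 1.13) at Dnm3 and 1.11 (1.02 to 1.21) at Pigc. At Synj2 it was 0.985 (0.907 to 1.07). With the peaks kept, which adds their own tags, the NIH3T3 ratio was 1.13 (1.05 to 1.22) at Synj2. It was then 0.973 (0.898 to 1.05) at Dcaf15 and 1.02 (0.938 to 1.10) at Cyb5r3, while Scube1 stayed below 1 and Dnm3 and Pigc above 1. These are means over whole windows and do not give the local background at a region.

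The motif itself was common in the windows. The 7-base form occurred at 511 places in the joined windows, of which 4 lay within 50 bp of an embryo summit and 6 within 50 bp of an NIH3T3 summit. At the 501 others the median was 5 tags in tagged embryos and 4 in wildtype, and 2 in either NIH3T3 library. Summed over these places the ratio was 1.04 (0.983 to 1.10) in the embryo and 1.23 (1.13 to 1.33) in NIH3T3 cells. The NIH3T3 ratio of the windows was 0.9502 away from peaks and 1.045 (1.015 to 1.076) with the peaks kept. Some of these places lie in peaks more than 50 bp from the summit, and neighbouring places share tags, so that the intervals are too narrow. Others had 0 tags in all 4 libraries, among them every place of the Synj2 window from chr17:5854434 to chr17:5926723. There a lack of tags could not be read as a lack of binding. The 6-base form was found at 1.13 (Cyb5r3) to 1.39 (Scube1) places per kb, beside 1.22 per kb of the whole genome. Of the promoters of RefSeq on GRCm38.p6, which span 250 bases before to 50 after a start, 23.9% hold the 6-base and 7.38% the 7-base form. The table has promoters for 5 of the 6 genes, Cyb5r3 being the exception. The 6-base form lay in 2 of their 6 promoters, that of Dcaf15 and 1 of the 2 overlapping ones of Synj2. Dcaf15 alone held the 7-base form, in the tested oligonucleotide.

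Relatives of the 6 genes were listed by their roles, and 12 of 30 had an embryo peak in their window and 26 an NIH3T3 peak, beside 25.1% and 81% of protein-coding genes. Among partners of Dcaf15 in the CUL4 ligase, Ddb1, the adaptor, had an embryo summit 192 bp from its start. Cul4a, a scaffold cullin, had one at 747 bp, while Cul4b had 0 embryo peaks. Of the 15 relatives listed for Dcaf15, other substrate receptors among them, 5 had an embryo peak. Dcaf7, another substrate receptor, had the one with the highest score, 447 as 10 times −log10 (p). Both relatives of Scube1 (Scube2 and Scube3) and both of Dnm3 (Dnm1 and Dnm2) had 1 or 2, while Synj1 had 0. Of the 6 other subunits of the enzyme that holds Pigc, Pigq and Dpm2 had 1 each, and of the 4 relatives of Cyb5r3, Cyb5rl.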

How the data were processed

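ChIP-seq tags of 4 libraries, 1 per condition, were used. The authors aligned the reads, deposited tag positions, and called peaks with MACS against each control at a p cutoff of 1e-05. In those lists the authors give the tag count, a score of 10 times −log10 (p), the fold enrichment over local background as a ratio, and the false discovery rate in percent. The positions were used on mm9 with GENCODE vM1. The Sox9 and IgG libraries, of whose tags 0.521% and 0.559% fell in gaps of mm9, were not analysed here.

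One tag per position and strand was kept (2.36% and 6.53% of NIH3T3 tags were repeats, 0% of embryo tags), counted at its midpoint, and divided by the library's total over the autosomes, X and Y. Ratios have Clopper-Pearson 95% intervals, and peaks and regions were called enriched at a ratio of at least 2. Motifs were searched on both strands within 50 bp of the summit. All 6 genes and all peaks in their windows were eligible for naming, the tested regions and the peaks of smallest p first. Other peaks and genes that are named were chosen after their values were seen. The genes and lists were chosen with earlier results of these data known. Python 3.11.15 with numpy 2.4.6, scipy 1.17.1, pandas 2.3.3, pysam 0.24.0 and matplotlib 3.10.9 was used, and the counting and motif code was tested on simulated data. Widths, thresholds, duplicates and scaling were varied. The values of the 2 tested regions away from these genes are not reported here.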

Additional observations from a re-analysis of the deposited data

How the results depend on the processing

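Depth limits these values, since within 200 bp of a summit at most 48 Bapx1 tags lay in the embryo and 24 in NIH3T3 cells, and there was 1 library per condition. No paired analysis was possible because each condition has 1 library. Counted on the 100 bp of the listed regions, the embryo ratio over the tested regions was 11.0 and the NIH3T3 ratio 2.52 (0.758 to 9.57), whose interval then included 1, and within 500 bp they were 2.89 and 1.57. With peaks kept, the ratio over the joined windows moved from 1.001 to 1.02 in the embryo and, turning direction, from 0.9502 to 1.04 in NIH3T3 cells, as it did at Cyb5r3 from 0.872 to 1.02; the peaks kept add their own tags. At p of at most 1e-10, 4 embryo and 4 NIH3T3 peaks were left, and at an embryo false discovery rate of at most 50%, 1. Within 100 kb of the genes' starts alone there were 25 NIH3T3 peaks. The 7-base motif lay at 6 of the 39 NIH3T3 summits, beside 24.6% of the whole list. At folds of 1.5 and 3, 11 and 3 NIH3T3 peaks were enriched in the embryo. The other 26 values of the main comparisons moved by less than their interval or 1.5 times. Among them, values of the embryo libraries with all tags kept could not change, since 0% of embryo tags were repeats. At single regions, 4 ratios had 0 control tags and could not be computed.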

Other observations

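Some 7-base motif places of the windows carried many embryo tags without a summit of either list within 50 bp, and they were chosen after their values were seen. The highest were the second motif of the Dcaf15 peak, with 36 tags in tagged and 4 in wildtype embryos within 200 bp, the tested Scube1 motif with 35 and 6, and the motif at the far end of that Scube1 peak with 34 and 4. Next came a place in Dnm3 at chr1:164185200, outside any embryo peak, with 26 tags in tagged and 10 in wildtype embryos and 1 and 2 in the NIH3T3 pair. Its neighbour at chr1:164185479 had 17 and 3. Of the places with fewer than 26 tags in tagged embryos, the next were 1 in Scube1 at chr15:83497135, with 19 and 13, and 1 in Dnm3 at chr1:164154032, with 19 and 14, whose neighbour at chr1:164153795 had 17 and 24. A place in the Synj2 window at chr17:5940657 had 17 and 5.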
